A study of Mus musculus with 36 samples.

Results

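The genes of the replication-dependent histone clusters were followed over the differentiation of mouse HM1 embryonic stem cells into motor neurons. They are the genes of the mouse count table whose symbol has the older form Hist1h to Hist4h and that had at least 1 count in 3 or more of the 36 libraries. Of 70 gene IDs with such a symbol, 68 were in the table of 51912 genes and 65 met the count rule. Hist1h2aa had counts in 1 library, Hist1h2ao in 2 and Hist1h2ba in 0, and they were left out. By family there were 18 H2A, 16 H2B, 13 H4, 12 H3 and 6 H1 genes. By symbol, 51 were assigned to the Hist1 cluster on chromosome 13, 10 to Hist2 on chromosome 3 and 3 to Hist3 on chromosome 11. Hist4h4 lies alone on chromosome 6. Hist1h2al, counted with Hist1 by its symbol, lies at chr13:51202727-51203065, outside the stretch that holds the other Hist1 genes. Hist1h2aj, Hist1h2al and Hist3h2bb-ps are annotated as pseudogenes.

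Polyadenylated RNA was sequenced at days 0, 0.5, 1, 1.5, 2, 2.5, 3, 3.5, 4, 5, 6 and 7, with 3 replicates a time point. All 36 cultures came from 1 line, HM1, and the labels name no other allele and no perturbation. After removal of feeder cells on gelatin they were grown in 10 ng/ml bFGF from day -3, with 5 µM CHIR99021 (a GSK3 inhibitor), 10 µM SB431542 and 2 µM DMH1 (inhibitors of TGF-beta and BMP receptors) added on day -1. Day 0 cultures had had no retinoic acid (RA) or SAG, an agonist of the Hedgehog receptor Smoothened, whereas all later ones were kept in 100 nM RA and 500 nM SAG. Time, medium and cell makeup thus change together, and in bulk RNA fewer cells of a type and less RNA per cell cannot be told apart. The labels call the replicates biological, without saying whether they were separate differentiations, so the tests see only the variation among the 3 libraries of a time point, which may be technical.

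Replication-dependent histone genes supply the core histones H2A, H2B, H3 and H4, which form the nucleosome, and linker histone H1, when DNA is copied in S phase. Most are short, intronless and clustered, and their messenger RNA normally ends just after a stem-loop, to which the protein SLBP binds, instead of in a poly(A) tail. Some of the same genes also give transcripts that run past the stem-loop to a polyadenylation signal, and these are known from cells that have stopped dividing. A library made from polyadenylated RNA sees such tailed transcripts, and only a remnant of the untailed ones.

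The stem-loop and the end of the transcript are printed for genes of both directions and all 5 families, because they bear on whether an RNA carries the tail that these libraries select. Searching annotated GENCODE M21 transcripts (GRCm38) for a 16-base hairpin with 6 base pairs starting GG and ending CC and a 4-base loop beginning with T found it in 43 of the 65 genes, and in 0.899% of all 141767 transcripts. The commonest form was carried by 23 genes, the form with an A in the loop by 6, and the form usual for H4 by 7. Only the annotated transcript was searched, so a hairpin past its end would have been missed. Capitals mark the hairpin, with up to 5 bases on each side.
Hist1h2ap: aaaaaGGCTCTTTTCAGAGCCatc
Hist1h2ab: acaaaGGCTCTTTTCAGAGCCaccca
Hist1h1e: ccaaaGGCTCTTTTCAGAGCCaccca
Hist1h1c: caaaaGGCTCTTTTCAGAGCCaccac
Hist3h2a: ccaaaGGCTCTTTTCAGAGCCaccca
Hist3h2ba: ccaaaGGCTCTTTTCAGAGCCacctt
Hist1h3c: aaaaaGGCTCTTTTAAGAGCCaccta
Hist1h2bb: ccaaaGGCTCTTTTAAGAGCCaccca
Hist1h4d: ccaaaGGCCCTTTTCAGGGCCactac
In the annotation the transcript of Hist1h2ap stops 3 bases after the hairpin, and that of Hist1h2ab 11 bases after it. Those of Hist3h2ba, Hist1h1c and Hist3h2a go on for 169, 840 and 1643 bases. Hist1h1c, Hist3h2a and Hist3h2ba hold the same 16 bases as Hist1h2ap and Hist1h2ab, while the printed flanking bases differ. The part of hairpin or flanks in the levels was not tested. The last 30 bases of 3 transcripts follow, with the polyadenylation hexamer AATAAA in capitals.
Hist3h2ba: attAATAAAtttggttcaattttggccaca
Hist1h1c: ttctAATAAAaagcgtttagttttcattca
Hist2h2be: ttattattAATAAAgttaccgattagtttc
No hairpin of this form was found in the 2620-base transcript of Hist2h2be. On GRCm38 the single exons of Hist3h2ba and Hist3h2a lie at chr11:58948920-58949533 and chr11:58954685-58956830, those of Hist2h2be and Hist1h1c at chr3:96221119-96223738 and chr13:23738808-23740367, all on the plus strand, and those of Hist1h2ap and Hist1h2ah at chr13:21833026-21833507 and chr13:22035164-22035568 on the minus strand.

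Day 0 replicate 2 stood apart in RNA that lacks a poly(A) tail, which bears on every comparison with day 0. A list of 12 such RNAs, among them Rn7sk, summed to 165 CPM (counts relative to the TMM-scaled library total) there and to between 34.7 and 89.7 CPM in the other 35 libraries. The same library had the highest level of the 3 at day 0 for 53 of the 65 histone genes, and day 0 replicate 1 the lowest for 49. Leaving out Hist1h2ah, Hist1h2ap, Hist3h2a and Hist3h2ba, the sum of the remaining genes was 56.2, 148 and 93.7 CPM in the 3 libraries of day 0. At 9 of the 12 time points the library highest of its 3 in that sum was also highest in untailed RNA, and at 9 the lowest was the lowest. The part of carried-over untailed RNA in these histone levels was not tested. The list summed to 36.2 ± 0.995 CPM at day 0.5, 58.0 ± 9.83 at day 1 and 36.8 ± 3.68 at day 1.5. It summed to 79.2 ± 9.49 CPM at day 2 and 53.3 ± 3.48 at day 2.5, and to 50.8 ± 5.31 at day 7. From day 0.5 to day 2, 4 of its 10 tested RNAs were higher and 2 lower, against 33.9% and 34% of all genes tested, with a median log2 fold change of 0.91. The summed level of untailed RNA thus differed between those days too, and not only at day 0. Values without day 0 replicate 2 are given where they change a tested result.

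Summed over the 65 genes, histone RNA was highest at day 1 and lowest at day 7. The 3 libraries held 374, 532 and 511 CPM at day 0, 574, 548 and 572 at day 0.5, and 761, 716 and 590 at day 1. They held 521, 626 and 597 at day 2, but 360, 345 and 312 at day 2.5, and 175, 181 and 189 at day 7. The libraries of days 2 and 2.5 did not overlap, and the mean went from 581 ± 53.9 to 339 ± 24.7 CPM (SD, n = 3). Between days 2.5 and 3.5 the means stayed between 339 and 370 CPM, and at day 7 the mean was 182 ± 7.38. The ratio of the means was 1.20 for day 0.5 against day 0, 0.490 for day 4 against day 2, 0.638 for day 7 against day 4 and 0.385 for day 7 against day 0. These ratios are a description, with no test of the sum.

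That course was mostly that of Hist1h2ah and Hist1h2ap, which were assigned 74.7% of the 467313 estimated counts of all 65 genes. Both encode canonical H2A. Their share of histone counts was 78.4% ± 6.62 at day 0, 87.7% ± 0.455 at day 1.5 and 25.9% ± 2.63 at day 7. The other 63 genes together gave 105 ± 47.0 CPM at day 0, 98.2 ± 10.4 at day 4 and 134 ± 2.09 at day 7. Without the main pair the ratio for day 7 against day 0 was 1.28, above 1 instead of below it. Within those 63, the Hist3 cluster went from 5.74 ± 0.759 CPM at day 0 to 95.2 ± 0.0327 at day 7, while the 49 other genes of the Hist1 cluster gave 52.7, 134 and 86.8 CPM at day 0 and 26.1 ± 2.60 at day 7. The Hist2 cluster went from 7.71 ± 5.33 to 12.8 ± 0.771 CPM. By day 7 the 3 Hist3 genes held 52.5% ± 2.10 of histone counts, against 1.23% ± 0.0829 at day 0.

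**Figure D1:**
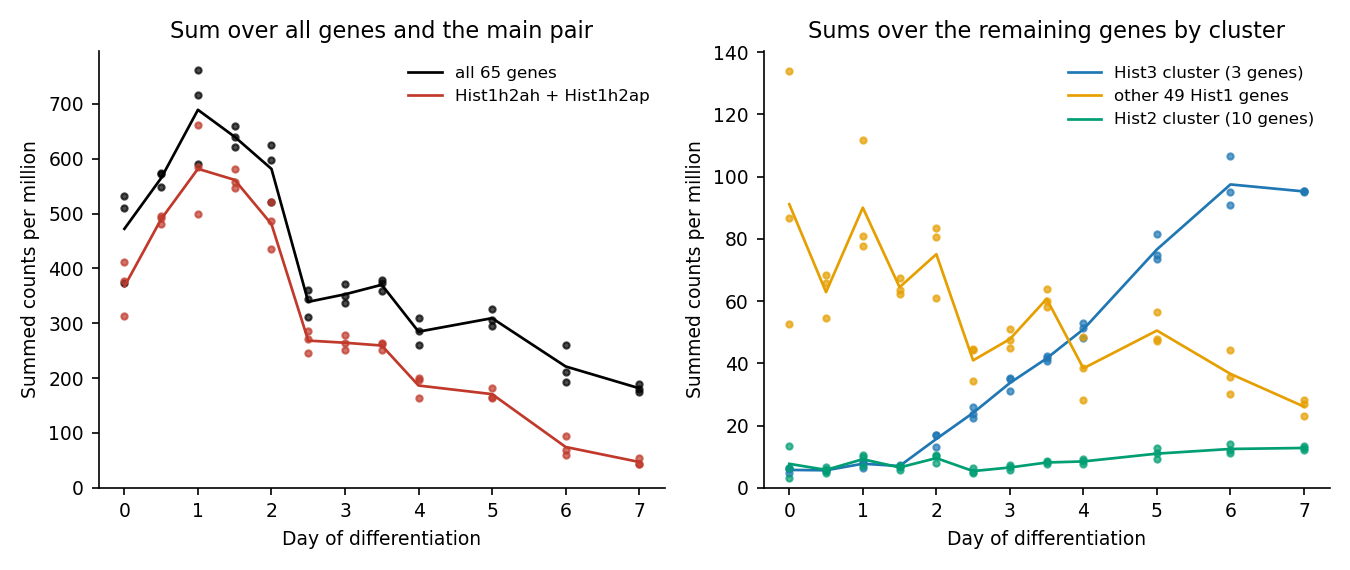
Summed CPM (TMM-scaled) against day of differentiation, with a point for each library and a line through the mean of 3. The sum of all 65 genes (left) follows Hist1h2ah and Hist1h2ap and steps down between days 2 and 2.5, whereas the Hist3 cluster (right) climbs from 5.74 to 95.2 CPM and the other Hist1 genes decline.

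By family, H2A gave 399 ± 57.9 CPM at day 0 and 91.0 ± 6.72 at day 7, and H3 gave 16.5 ± 10.6 and 2.24 ± 0.514. H4 gave 13.2 ± 7.89 CPM at day 0 and 4.43 ± 0.821 at day 7, and H1 19.2 ± 16.6 and 9.14 ± 1.44. H2B went from 24.3 ± 9.77 to 74.7 ± 2.10 CPM, a rise that was that of Hist3h2ba. The other 15 H2B genes summed to 12.6, 31.9 and 18.1 CPM at day 0 and to 16.2, 16.3 and 15.7 at day 7, so their sums overlapped, and of the 15 H2B genes tested, Hist3h2ba among them, 4 were higher and 9 lower at day 7. The share of H2B in histone counts was 5.04% ± 1.34 at day 0 and 41.2% ± 2.74 at day 7, and that of H2A 85.1% ± 7.23 and 50.1% ± 1.66. At day 0, replicate 2 was the highest library for H1, H2B, H3 and H4, as with 38.0 CPM of H1 against 6.60 and 12.9 in the others.

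Over all 12 time points, 52 of the 61 genes that passed the count filter differed somewhere (edgeR's quasi-likelihood test, Benjamini-Hochberg adjusted p under 0.05). That is a smaller share than the 96.1% of the 17990 genes tested that did. The 9 without a call were Hist1h2ac, Hist1h2ad, Hist1h2aj, Hist1h2be, Hist1h2br, Hist1h4j, Hist2h2aa1, Hist2h2ac and Hist4h4. Hist1h1t, the testis linker histone, Hist2h2ab, Hist2h3c1 and Hist3h2bb-ps were too low to test. Levels were low for most: 12 genes averaged under 1 TPM (a length-corrected share of transcripts), 5 averaged over 10 TPM, and 32 were at 0 counts in at least 1 library. By mean TPM, 21 genes were highest at day 1, 17 at day 0 and 11 at days 6 and 7, where 7 peaked at day 6 and 4 at day 7. Some day 0 peaks rest on replicate 2, as for Hist1h1e at 18.4 ± 18.1 TPM, and the peaks were not recounted without it.

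**Figure D2:**
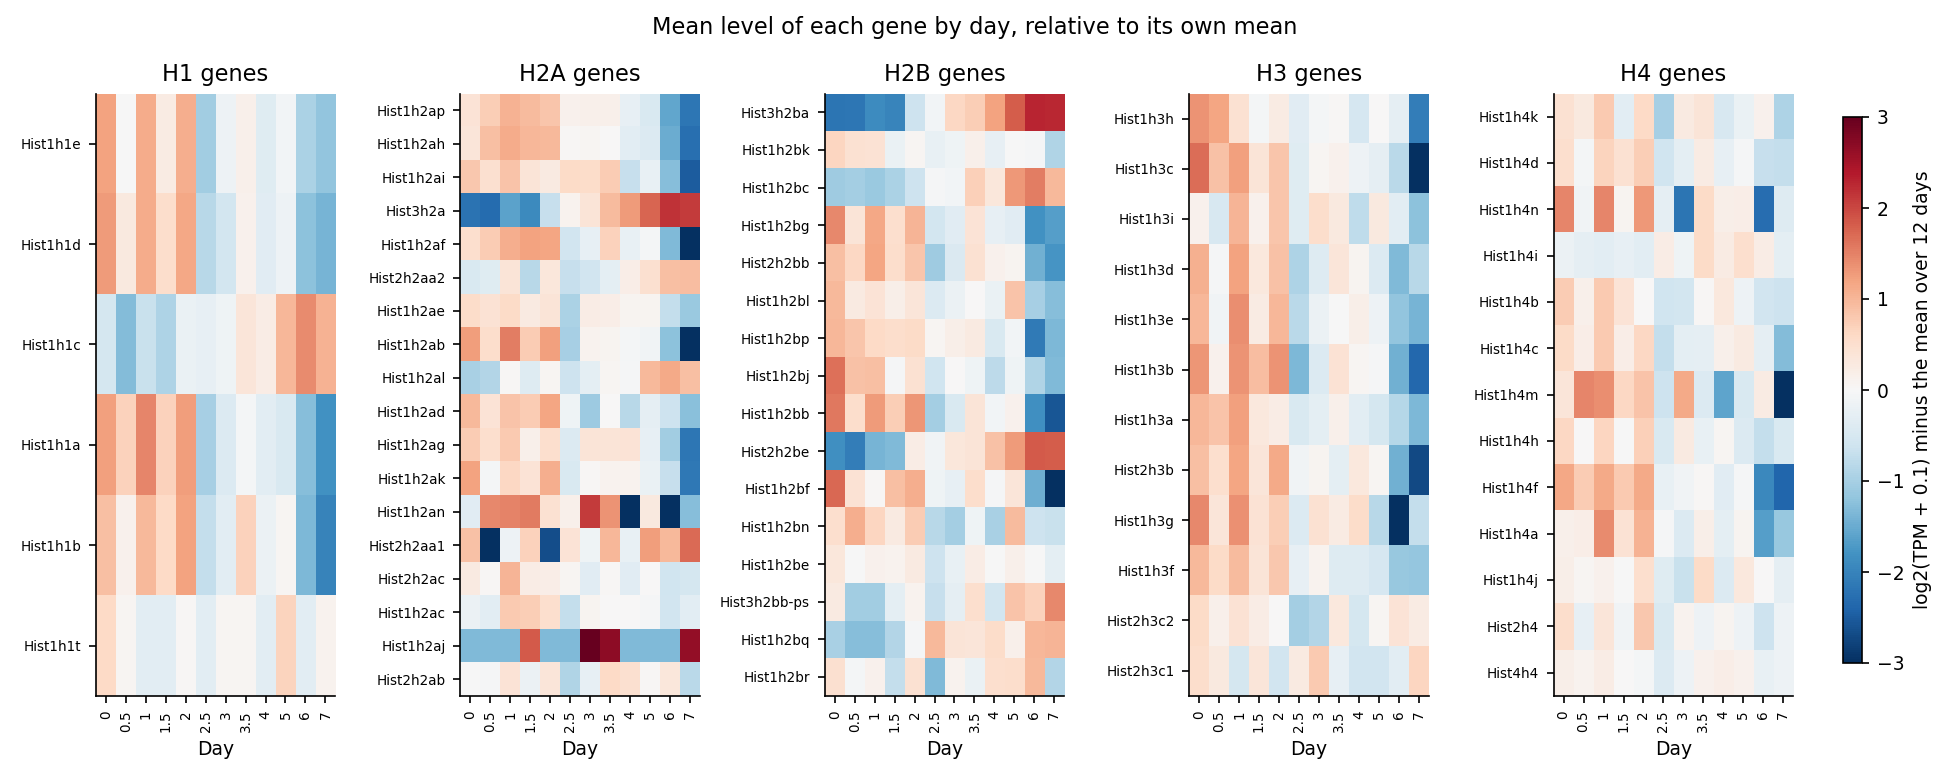
Mean TPM of each of the 65 genes at each day, as log2(TPM + 0.1) minus the gene's mean over the 12 days, by family and ordered by level. Most genes are higher (red) up to day 2 and lower (blue) at day 7, with Hist1h1c, Hist3h2a, Hist3h2ba, Hist1h2bc and Hist2h2be in the opposite order.

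Among the H2A genes, Hist1h2ap had the highest level, with a mean of 790 TPM over the 36 libraries. It measured 810, 867 and 996 TPM at day 0, 1502, 1370 and 1245 at day 1, 1076, 1287 and 1215 at day 2, 751, 771 and 666 at day 2.5 and 130, 155 and 160 at day 7. The steps from day 0 to 0.5, day 0.5 to 1, day 2 to 2.5 and each step after day 3.5 separated all 3 libraries, whereas days 1, 1.5 and 2 overlapped, as did days 2.5, 3 and 3.5. Hist1h2ah averaged 726 TPM and measured 587, 856 and 880 TPM at day 0, 1580, 1299 and 1009 at day 1 and 120, 100 and 157 at day 7. Hist1h2ai, the next by level, averaged 56.7 TPM and was uneven between replicates, with 78.7, 37.2 and 137 TPM at day 0 and 9.59, 15.5 and 0 at day 7. Just 6.9% of the 50-base runs of Hist1h2ap, 9.3% of those of Hist1h2ah and 9.9% of those of Hist1h2ai are found in no other gene. How the reads were shared between these 3 therefore rests on the authors' estimation. The sum of Hist1h2ah and Hist1h2ap does not depend on the split between them, but it does depend on the split with other genes. Each of the 3 shares 50-base runs with 17 histone genes of the set, and with genes outside it such as H2afj and H2afx. Within the set, 61 genes share such a run with another gene, and for 33 under 50% of the runs are found in no other gene.

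Hist3h2a, an H2A gene of the Hist3 cluster, took the opposite course and had the fourth highest H2A level. It measured 1.18, 2.38 and 1.60 TPM at day 0, 5.62, 4.24 and 5.62 at day 2, 19.99, 20.31 and 20.86 at day 4 and 33.9, 37.4 and 36.5 at day 7. Every library of day 2 stood above every library of days 0 to 1.5, and every day 7 library above those of day 4. Its neighbour Hist3h2ba, an H2B gene on the same strand with 5151 bases between them, had the highest H2B level, with a mean of 85.7 TPM. It measured 10.3, 9.53 and 11.5 TPM at day 0, 33.7, 27.1 and 32.7 at day 2, 107, 118 and 110 at day 4 and 241, 228 and 223 at day 7. From day 1.5 each later time point stood above the one before in all 3 libraries up to day 6, and days 6 and 7 overlapped. For Hist3h2a 68.5% and for Hist3h2ba 77.9% of the 50-base runs are found in no other gene. An exon of Hist3h2a overlaps Trim17 on the same strand.

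Other H2B genes split in direction. Hist2h2be, whose transcript shares no 50-base run with another gene, measured 0.440, 0.410 and 0.370 TPM at day 0, 2.05, 1.99 and 2.01 at day 2 and 6.83, 6.42 and 5.66 at day 7. Its day 2 libraries stood above those of days 1.5 and 2.5 alike, so the course had a local peak there. Hist1h2bc measured 2.67, 3.03 and 4.75 TPM at day 0, 24.1, 21.2 and 19.8 at day 6 and 13.6, 15.6 and 14.9 at day 7, and was highest at day 6. Hist1h2bk, with the second highest H2B mean, measured 12.3, 16.3 and 14.3 TPM at day 0 and 5.65, 2.35 and 6.49 at day 7. Hist1h2bj had the largest share of its counts at 1 time point, 23.5% at day 0, where it measured 7.03, 6.96 and 7.79 TPM.

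**Figure D3:**
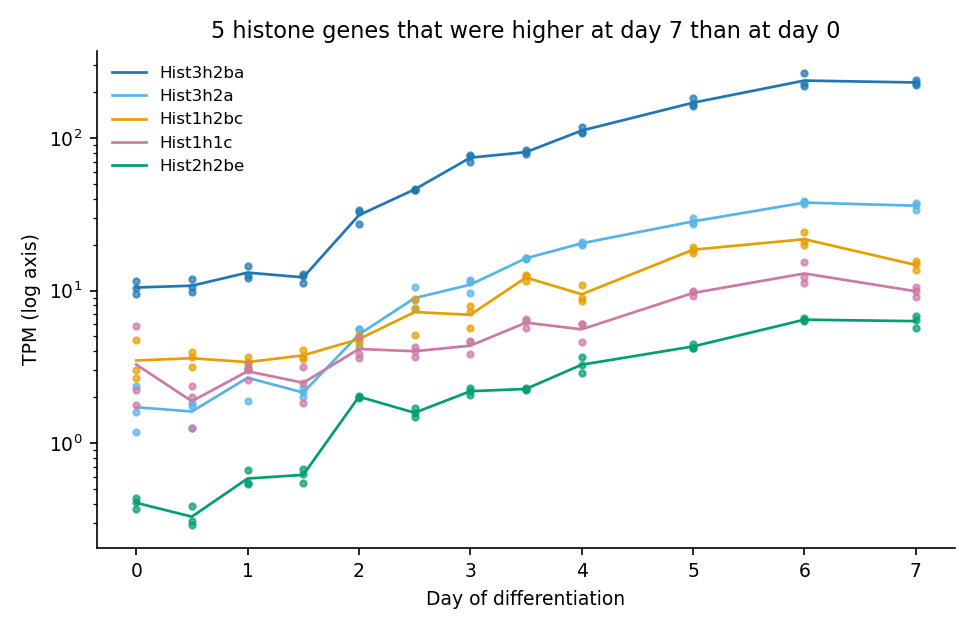
TPM on a log axis against day for 5 genes that were higher at day 7 than at day 0, with a point for each library and a line through the mean. Hist3h2ba goes from 10.5 to 231 TPM and Hist2h2be from 0.407 to 6.30 TPM, with every library of day 2 above all earlier ones for both, and Hist1h1c and Hist1h2bc peak at day 6.

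Of the H1 genes, Hist1h1e, Hist1h1d and Hist1h1c had the highest mean TPM. Their order is not given, since the models counted for Hist1h1e and Hist1h1d were shorter than their annotated transcripts and that of Hist1h1c was not, and in estimated counts Hist1h1c led with 5050 against 3932 and 2590. Hist1h1e measured 5.00, 39.0 and 11.2 TPM at day 0, so 1 library was far above the other 2, and 13.6, 17.1 and 20.9 TPM at day 2. It measured 6.48, 2.71 and 2.21 TPM at day 2.5 and 1.48, 3.36 and 5.53 at day 7. Hist1h1d gave 12.4 ± 10.7 TPM at day 0 and 1.88 ± 0.900 at day 7. Hist1h1c measured 1.77, 5.84 and 2.22 TPM at day 0, 15.5, 11.1 and 12.2 at day 6 and 9.14, 10.5 and 10.0 at day 7. All its day 7 libraries lay above those of day 0.

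By mean TPM the 3 leading H3 genes were Hist1h3h, Hist1h3c and Hist1h3i, at 6.33, 5.19 and 3.59. Hist1h3c measured 6.19, 20.96 and 10.96 TPM at day 0 and 0.480, 0.230 and 0 at day 7. The highest mean TPM among H4 genes were those of Hist1h4k, Hist1h4d and Hist1h4n, at 7.07, 6.30 and 4.94, with a model shorter than the annotated transcript for Hist1h4d. In estimated counts Hist1h4i led the H4 genes, with 1814 against 973, 1210 and 1066. Hist1h4d gave 8.51 ± 6.28 TPM at day 0, 9.91 ± 2.45 at day 2 and 3.58 ± 0.500 at day 7. Hist1h4i, also H4, gave 3.93 ± 1.60 TPM at day 0, 6.72 ± 1.02 at day 3.5 and 3.60 ± 1.10 at day 7. Hist4h4 had the smallest share of its counts at 1 time point and stayed between 0.120 and 0.420 TPM in every library.

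Between day 0 and day 0.5, the first 12 hours of RA and SAG, 2 of 61 tested genes were higher and 9 lower, against 27.6% and 26.7% of all genes tested, a smaller share in both directions. The 3 libraries of day 0.5 lay all above those of day 0 for 3 histone genes and all below for 4, against 31.3% and 30.7%. Both that were higher were the main H2A pair, Hist1h2ah with a log2 fold change of 0.54 ± 0.15 (approximate SE) and adjusted p = 0.00273, and Hist1h2ap with 0.32 ± 0.086 and adjusted p = 0.00198. Of the 9 lower genes, Hist1h2bj alone had groups that did not overlap and a mean above 1 CPM, with -0.80 ± 0.31 and adjusted p = 0.0262, a call that was lost without day 0 replicate 3 or day 0.5 replicate 2 or 3. Hist1h1e had -1.21 ± 0.46, and -0.03 without day 0 replicate 2. The 9 became 1 without day 0 replicate 2, 20 without day 0 replicate 1, and 1, 3 and 5 without day 0.5 replicates 1, 2 and 3, so the count rests on single libraries.

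Between day 0.5 and day 2, 11 of 61 genes were higher and 1 lower, against 33.9% and 34% of all genes. Groups did not overlap for 20 higher and 2 lower histone genes, against 35.1% and 36%. Hist2h2be rose by a log2 fold change of 2.47 ± 0.14 (adjusted p = 7.28e-17), Hist3h2a by 1.56 ± 0.18 (adjusted p = 1.97e-09) and Hist3h2ba by 1.42 ± 0.11 (adjusted p = 2.77e-13). The other 8 higher genes had adjusted p between 0.00157 and 0.0493, among them Hist1h1b, Hist1h1c and Hist1h1e. Hist1h3h was lower, at -1.04 ± 0.43 with adjusted p = 0.0338. The 11 became 5, 4 and 7 without day 0.5 replicates 1, 2 and 3, and 6 without day 2 replicate 2 or without replicate 3. The lower gene lost its call without day 0.5 replicate 2 or 3 or day 2 replicate 1 or 3.

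Between day 2 and day 4, 25 of 61 genes were lower and 4 higher, against 31.8% and 33.1% of all genes. The median log2 fold change of the 61 was -1.05, and that of all genes 0.01. Groups did not overlap for 28 lower and 5 higher histone genes, against 32% and 33.3%. The largest falls with separate groups were Hist1h3i at -1.86 ± 0.66 (not called without day 4 replicate 2), Hist1h1a at -1.81 ± 0.42 and Hist1h1d at -1.69 ± 0.43, with adjusted p of 0.0133, 0.000338 and 0.000868. Hist1h2ah fell by 1.47 ± 0.16 and Hist1h2ap by 1.29 ± 0.089 on the log2 scale (adjusted p = 4.56e-10 and 1.26e-14). Hist3h2a rose by 1.79 ± 0.13, Hist3h2ba by 1.65 ± 0.085 and Hist1h2bc by 0.79 ± 0.17, and Hist2h2be was the fourth. All 25 lower genes have a Hist1 symbol, as do 50 of the 61 tested. The 25 became 16 without day 2 replicate 2 and 14 without day 4 replicate 2.

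The step from day 2 to day 2.5 was compared on its own after its values had been seen, because the summed level dropped there. In it 27 of 61 genes were lower and 3 higher, against 22.9% and 24.9% of all genes. Groups did not overlap for 37 lower and 4 higher histone genes, against 25.4% and 27.7%. Hist1h3b fell by 2.88 ± 0.76, Hist1h2bb by 2.56 ± 0.57 and Hist1h1a by 2.35 ± 0.44 on the log2 scale (adjusted p = 0.0019, 0.000311 and 4.03e-05). Hist1h2ah fell by 0.97 ± 0.15 and Hist1h2ap by 0.75 ± 0.087. Hist3h2a rose by 0.76 ± 0.14 and Hist3h2ba by 0.53 ± 0.089 over the same step, and the other higher gene was Hist1h2bc, whereas Hist2h2be fell by 0.38 ± 0.11.

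Between day 4 and day 7, 21 genes were lower and 6 higher, against 32.9% and 33.5% of all genes, so the lower calls were near the background. Groups did not overlap for 18 lower and 6 higher histone genes, against 33.6% and 35.4%. Hist1h2ag fell by 2.70 ± 0.61, Hist2h2bb by 2.06 ± 0.65 and Hist1h2ah by 2.01 ± 0.18 on the log2 scale (adjusted p = 0.000232, 0.00574 and 5.86e-12), and Hist1h2ap by 1.97 ± 0.098. Hist3h2ba rose by 0.99 ± 0.073, Hist2h2be by 0.89 ± 0.096, Hist1h1c by 0.77 ± 0.23 and Hist3h2a by 0.76 ± 0.11, and the other higher genes were Hist1h2al and Hist1h2bc. Hist1h2bf had 14.3 estimated counts at day 4 and 0 at day 7, which is at least 1.71-fold lower against a floor of 3 counts per library. Those lower both here and from day 2 to day 4 numbered 13, in 2 comparisons that share the day 4 libraries. The share of all genes lower in both was not worked out, so the 13 is a description only. Without day 7 replicate 1 the 21 became 14. Hist2h2be, Hist3h2a and Hist3h2ba were higher in each of the 3 consecutive comparisons from day 0.5 to day 7. The share of all genes higher in each of those 3 was not worked out either.

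Over the whole course, day 7 against day 0, 42 of 61 genes were lower (68.9%) and 8 higher (13.1%), against 41.2% and 44.1% of all genes tested. Without day 0 replicate 2, 33 were lower and 8 higher. Groups did not overlap for 35 lower and 7 higher histone genes, against 41.8% and 44.5%. The median log2 fold change was -2.30, also with genes at 0 counts set to their bound, against 0.05 for all genes. Lower genes by family were 4 of 5 tested H1, 8 of 17 H2A, 9 of 15 H2B, 10 of 11 H3 and 11 of 13 H4. The 8 higher genes were 1 H1, 3 H2A and 4 H2B. The fold changes of all 24 tested H3 and H4 genes were below 0. As this comparison shares its samples with the others, its calls are no separate evidence for them.

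Hist3h2ba rose by 4.10 ± 0.096 and Hist3h2a by 4.05 ± 0.15 on the log2 scale (adjusted p = 1.49e-28 and 8.16e-23). Hist2h2be rose by 3.59 ± 0.12 (adjusted p = 1.09e-23), Hist1h2bc by 1.72 ± 0.17 and Hist1h1c by 1.26 ± 0.24. Hist1h2bq had 2.47 estimated counts at day 0 and 38.6 at day 7, a ratio of 13.8 after scaling to library size, with a 95% interval of 4.00 to 87.9 for counting error only. Only 2.7% of its 50-base runs are found in no other gene, and with Hist1h2br, with which it shares sequence, it summed to 0.213 ± 0.118 CPM at day 0 and 0.401 ± 0.0505 at day 7. The remaining higher genes were Hist1h2al and Hist2h2aa2, whose sum with its near-copy Hist2h2aa1 was 1.97 ± 1.15 CPM at day 0 and 3.57 ± 0.379 at day 7. Summed with every histone gene that shares a 50-base run with them, directly or through others, Hist3h2a stood at -2.13 and Hist1h2bc and Hist1h1c at -1.01, so their own rise is seen only in the reads assigned to each gene. Hist3h2ba, grouped with 1 other gene, and Hist2h2be, grouped with none, kept their direction.

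Of the genes that fell, Hist1h3c had -6.17 ± 0.64, Hist1h2ab -5.06 ± 0.69 and Hist1h2bb -4.61 ± 0.69 (adjusted p = 1.29e-10, 4.72e-08 and 2.39e-07). These folds rest on 4.68, 8.77 and 4.16 estimated counts at day 7, and their size is therefore uncertain. Hist1h2ah fell by 2.98 ± 0.18 and Hist1h2ap by 2.95 ± 0.098, with 1928 and 2845 estimated counts summed over the 3 libraries of day 7. Hist1h1e fell by 2.75 ± 0.52, or by 1.57 without day 0 replicate 2. Hist1h2bk had -1.91 ± 0.32, Hist1h4k -1.75 ± 0.47, Hist1h4d -1.57 ± 0.40 and Hist4h4 -0.83 ± 0.37, and Hist1h4i, at -0.47, did not pass the test. Hist1h4k became -0.91 and Hist4h4 -0.49 without day 0 replicate 2, and neither then passed. Hist1h2bf had 60.0 estimated counts at day 0 and 0 at day 7, at least 7.87-fold lower.

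**Figure D4:**
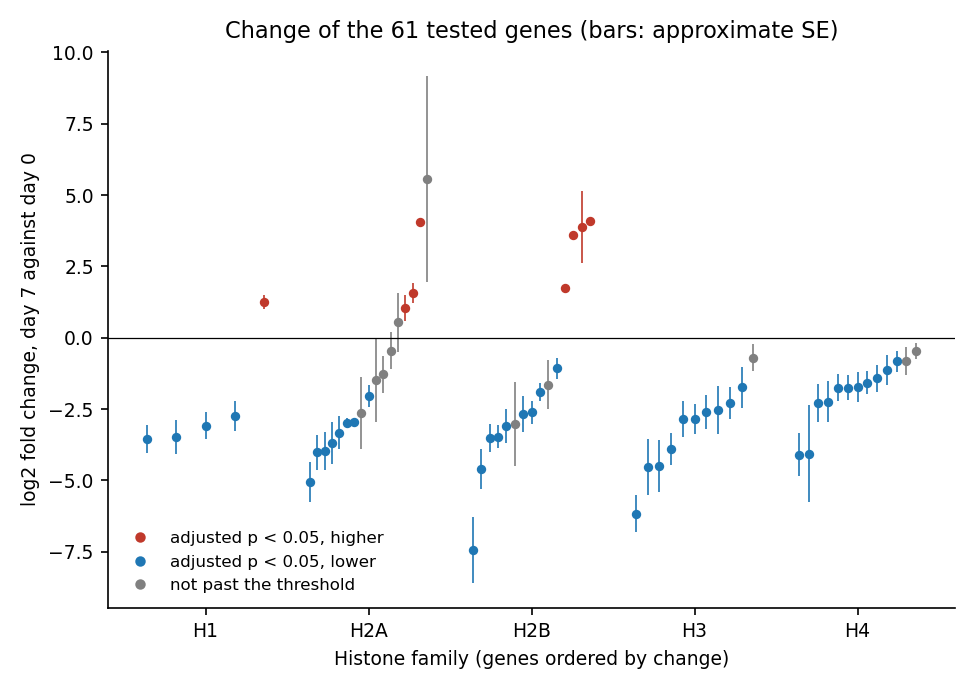
Log2 fold change of day 7 against day 0 for the 61 tested genes by family, with the approximate standard error as bars and colour for the test result. The H3 and H4 genes all lie below 0, and the genes above 0 that passed are 1 H1, 3 H2A and 4 H2B genes.

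The counted models differ between the genes, which limits what could be seen. Counts divided by TPM give the length the authors' quantification used, here rescaled over 970 other genes with 1 annotated transcript. For 43 of the 61 genes with at least 10 counts in 3 or more libraries that length equalled the longest M21 transcript, within 20 bases or 3%. The implied length was 482 bases for Hist1h2ap, 405 for Hist1h2ah, 614 for Hist3h2ba, 2146 for Hist3h2a, 2618 for Hist2h2be and 1560 for Hist1h1c. For 15 genes with 1 transcript it was shorter, by 56 to 6681 bases, as for Hist1h1d (744 against 7425), Hist1h1e (748 against 1930), Hist1h2ac (475 against 2482), Hist1h4d (393 against 1138) and Hist1h2bc (736 against 1156). Reads from the part beyond such a model were outside the counts of that gene, and the levels of these 15 genes by TPM are not comparable with those of genes whose model includes the extension.

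**Figure D5:**
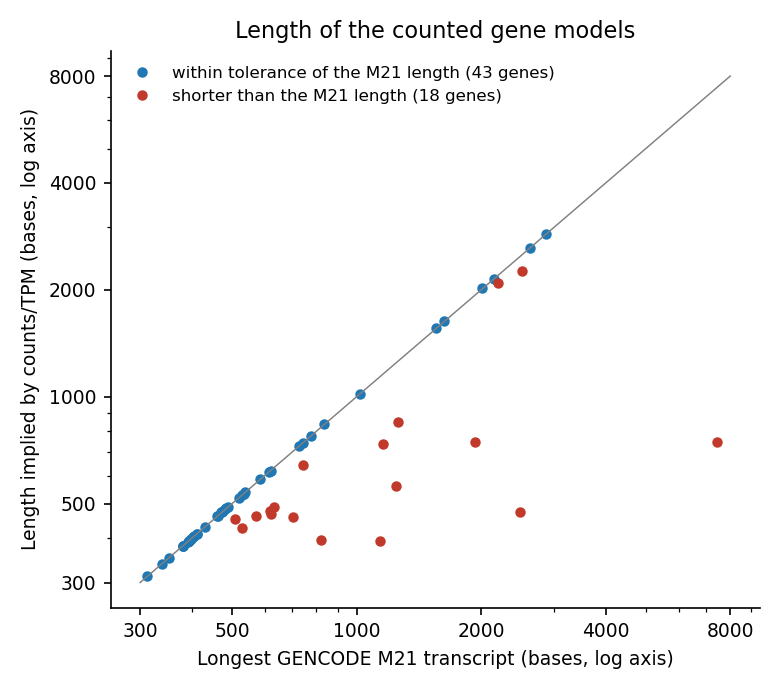
Length of the counted model implied by counts over TPM against the longest GENCODE M21 transcript, in bases on log axes, with the line of equality. The 43 genes in blue lie on the line, and of the 18 in red 15 have 1 annotated transcript and a shorter counted model.

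Among genes whose lengths matched, the counted model ran more than 100 bases past the hairpin for 10 and ended at it for 16. Of those 10, 3 were higher (Hist1h1c, Hist3h2a and Hist3h2ba) and 4 lower at day 7 than at day 0, with a median log2 fold change of -0.75. Of the 16 that ended at the hairpin 1 was higher and 13 lower, with a median of -2.91. Matching lengths were also found for 17 genes with no hairpin of this form inside the model, Hist1h2ah and Hist2h2be among them. Some of these models are short, as with 405 bases for Hist1h2ah and 381 for Hist2h2bb. Whether such a gene has a hairpin past the end of its model cannot be told from this search. Of those 17, 3 were higher and 11 lower, with a median of -2.66. Of all genes tested 44.1% were higher and 41.2% lower, so the 10 extended genes, at 30% and 40%, exceeded neither share. An AATAAA or ATTAAA hexamer in the last 50 bases of the model of that length was present in 4 of 7 higher genes with matching lengths and in 4 of 28 lower ones. In CPM the 10 extended models summed to 15.6 ± 7.24 at day 0 and 105 ± 1.08 at day 7, but without Hist3h2a and Hist3h2ba the other 8 summed to 9.93 ± 6.67 and 10.1 ± 1.09. The 16 that ended at the hairpin summed to 237 ± 25.9 CPM at day 0 and 34.6 ± 3.26 at day 7. Hist1h4i and Hist1h4j were extended, held a hexamer and were not called in either direction. These counts describe the genes and no test was made of them.

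Promoter sequence is shown for the pair that rose together and the pair that fell together. RefSeq promoters (GRCm38.p6) matching the 65 genes numbered 58, with Hist1h2be present more than once and some genes without one. Each was searched on both strands over the 250 bases before the start. CCAAT was present in 81% of the 58 and 33.8% of all 32851 promoters, TATAAA in 46.6% and 12.4%, and ATGCAAAT, the octamer bound by POU factors, in 19% and 1.6%. The 120 bases before the RefSeq start of 4 genes are shown with these motifs, or their reverse complements, in capitals. That start can differ from the start of the M21 transcript, and the window of Hist1h2ap overlaps its M21 exon. The windows are chr11:58948791-58948910 (plus strand) for Hist3h2ba, chr11:58954565-58954684 (plus strand) for Hist3h2a, chr13:21833476-21833595 (minus strand) for Hist1h2ap and chr13:22035644-22035763 (minus strand) for Hist1h2ah.
Hist3h2ba: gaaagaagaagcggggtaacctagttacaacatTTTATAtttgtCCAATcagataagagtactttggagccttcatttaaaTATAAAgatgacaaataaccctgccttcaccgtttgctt
Hist3h2a: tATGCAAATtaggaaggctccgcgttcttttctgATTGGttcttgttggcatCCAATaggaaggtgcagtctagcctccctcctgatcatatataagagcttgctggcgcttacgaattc
Hist1h2ap: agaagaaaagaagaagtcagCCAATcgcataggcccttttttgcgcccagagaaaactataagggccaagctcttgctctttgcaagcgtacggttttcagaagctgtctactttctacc
Hist1h2ah: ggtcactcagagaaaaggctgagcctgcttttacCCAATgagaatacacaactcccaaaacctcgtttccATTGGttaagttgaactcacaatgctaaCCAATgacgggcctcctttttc
All 4 windows hold CCAAT, those of the genes that rose and those of the genes that fell. The window of Hist1h2ah shares 63 bases with that of Hist1h2bk, which is read in the other direction.

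Among genes that act on histone RNA, Slbp, which binds the stem-loop, went from 132.5 ± 6.53 TPM at day 0 to 154 ± 0.596 at day 0.5 and 56.5 ± 3.69 at day 7, a fall of 1.57 ± 0.057 on the log2 scale from day 0 (adjusted p = 4.17e-23). Casp8ap2 (FLASH), a histone processing factor, fell by 1.32 ± 0.060 and Npat, the coactivator of histone genes, by 0.70 ± 0.045. Between days 2 and 2.5, where 27 histone genes were lower, the 3 had 0.09 ± 0.054, 0.09 ± 0.057 and 0.04 ± 0.045 (adjusted p = 0.153, 0.216 and 0.489). Of 15 transcription and 3' end processing genes 12 were lower and 3 higher at day 7 than at day 0, of 7 decay genes 6 and 1, and 10 of 11 histone chaperones were lower, against 41.2% of all genes.

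All 20 S phase genes were lower at day 7 than at day 0, with a median log2 fold change of -2.63, and all 12 G2 and M phase genes, with -2.70. The summed level of the S phase list was 4483 ± 26.6 CPM at day 0, 5750 ± 58.4 at day 0.5, 6193 ± 51.8 at day 1.5, 4066 ± 185 at day 2, 3563 ± 80.6 at day 2.5 and 680 ± 61.3 at day 7. At the step from day 2 to day 2.5, 10 of the 20 were lower and 3 higher, with a median of -0.15, beside a median of -1.22 for the 61 histone genes (-1.17 with genes at 0 counts set to their bound). That difference was not tested. Histone genes of the replication-independent and variant list differed in direction: H3f3b rose by 0.63 ± 0.046 and H3f3a by 0.49 ± 0.043 from day 0 to day 7, and H2afz fell by 2.82 ± 0.073. Of 11 tested in that list, 6 were higher and 4 lower.

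Library totals ran from 26567321 to 35757989 counts, and replicates differed by 3.0 to 49.8 times counting noise (chi-square per degree of freedom). Pluripotent and neuronal markers moved as labelled, with all 6 pluripotent and caudal epiblast genes lower and all 8 neuron genes higher at day 7 than at day 0. Summed motor neuron markers were highest at day 3, at 244 ± 10.4 CPM, and were 14.5 ± 0.992 CPM at day 7, near the 10.7 ± 0.367 of day 0. Of these 5 genes 3 were higher and 1 lower at day 7 than at day 0, with a median log2 fold change of 1.21. Astroglial and oligodendrocyte lineage markers went from 76.4 ± 1.14 to 1464 ± 25.7 CPM and those of fibroblasts and mesenchyme from 53.2 ± 2.45 to 1640 ± 94.6 CPM, with 6 of 7 genes higher in each. At day 7 the fibroblast gene Dcn was at 177.5 TPM and the astrocyte gene Aqp4 at 1.05. The whole lists had the other order in summed TPM at day 7. The astroglial and oligodendrocyte lineage list was at 3388 ± 79.0 and the fibroblast and mesenchyme list at 938 ± 65.5. The glial and mesenchymal lists were higher at day 7 than at day 2, as were Hist3h2a and Hist3h2ba. Between days 0.5 and 2 the Hist3 cluster went from 5.64 ± 0.121 to 15.7 ± 2.12 CPM. Over those days the glial list went from 97.8 ± 4.96 to 102 ± 3.35 CPM and the mesenchymal list from 47.7 ± 1.82 to 55.5 ± 5.97. The neuron list went from 133 ± 2.53 to 1017 ± 62.2 CPM. Between days 2 and 2.5 the mesenchymal list went from 55.5 ± 5.97 to 67.1 ± 8.15 CPM, with 2 of 7 genes higher and 0 lower, and the Hist3 cluster from 15.7 ± 2.12 to 24.1 ± 1.80 CPM. The part of such cells in the histone levels was not tested. Germ cell markers were at 31.9 ± 1.75 CPM at day 0 and at or below 6.76 later.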

How the data were processed

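Polyadenylated RNA of 36 cultures was extracted with the RNeasy Plus Micro kit and made into libraries with a KAPA mRNA kit, per the labels' protocols. The deposited tables hold RSEM estimated counts (expected counts) and TPM per gene, made by the authors against GRCm38 with reads from bcl2fastq 2.20.0, per the submitters' processing notes. The aligner, annotation release and strand setting were not given in the sources used here. Because RSEM divides reads shared between near-identical genes, 6.87% of counts are not whole, and they were rounded before testing.

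Counts were fitted with edgeR 4.0.16 (R 4.3.3): all 36 libraries, 12 groups, TMM factors (0.924 to 1.06), filterByExpr (17990 of 32047 genes with a count kept), a quasi-likelihood F test with 24 residual degrees of freedom and Benjamini-Hochberg adjustment over all genes tested, threshold 0.05. The approximate SE is the log2 fold change divided by the root of F. CPM use TMM-scaled library sizes. Comparisons were days 0.5 against 0, 2 against 0.5, 4 against 2, 7 against 4 and 7 against 0. Lists of non-member genes are described by counts and medians. Genes named per comparison were the 3 with the largest change each way among calls with non-overlapping groups and a mean of at least 1 CPM, by level the 3 highest of each family, and by time the genes with the largest and smallest share of their counts at 1 day; others are named because a result turns on them. The fit was tested on simulated data. Members and lists were chosen with earlier results of these data known. Sequences come from GENCODE M21 transcripts (GRCm38) and, for promoters, RefSeq (GRCm38.p6). DESeq2 1.42.0, limma 3.58.1 on log2(TPM + 1) and log2(TPM + 0.1), other scalings and filters, and each replicate left out were the alternatives. Totals of 26567321 to 35757989 counts limit precision for genes with few counts. Intervals and floors cover counting error only.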

Additional observations from a re-analysis of the deposited data

How the results depend on the processing

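Among the named genes the calls that were lost were those of Hist1h2bj and Hist1h1e at day 0.5, Hist1h3h at day 2, Hist1h3i at day 4, Hist2h2bb and Hist1h1c at day 7 against day 4, and Hist1h4k and Hist4h4 at day 7 against day 0, each under at least 1 setting, and Hist1h4i gained a call at day 7 against day 0 under 3. Summing histone genes that share 50-base runs, so that each takes the value of its group, turned Hist3h2a to -0.012 (day 2 against 0.5), -0.79 (day 2.5 against 2), -1.22 (day 4 against 2), -1.27 (day 7 against 4) and -2.13 (day 7 against 0), Hist1h3h to 0.17, Hist1h2bc to -0.75 (day 4 against 2) and -1.01 (day 7 against 0) and Hist1h1c to -1.01, since each group is dominated by its most abundant genes. Under that setting the 1 test of a group, of up to 18 genes, was counted once for each gene in it. The resulting counts are not numbers of separate tests and do not compare with those of other settings. They were, for higher and lower, 18 and 15 at day 0.5 against 0, 4 and 0 at day 2 against 0.5, 3 and 59 at day 4 against 2, and 3 and 45 at day 7 against 4, with 3 higher at day 7 against day 0. Without the low-count filter the counts of higher and lower genes were 4 and 17 at day 0.5 against 0, 20 and 5 at day 2 against 0.5, with 12 higher at day 7 against 4. DESeq2 gave 4 lower at day 0.5 against 0 and 5 higher and 0 lower at day 2 against 0.5. The limma fits gave 1 (0.1 added) and 2 (1 added) lower at day 0.5 against 0 and 0 lower at day 2 against 0.5 with either (at an unadjusted p under 0.05, 1 for edgeR and DESeq2 and 0 and 1 for limma). Fitting the 6 libraries compared gave 20 higher and 2 lower at day 2 against 0.5. Leaving out 1 replicate gave 1 to 20 lower at day 0.5 against 0, 4 to 12 higher and 0 to 1 lower at day 2 against 0.5, and 14 to 28 lower at day 4 against 2, while at day 7 against 0 it gave 7 to 8 higher and 33 to 46 lower. Without Hist1h2ah and Hist1h2ap, an alternative chosen after seeing the data, the ratio of summed CPM was 0.711, 1.35, 0.976, 1.37 and 1.28 for the 5 comparisons in order, against 1.20, 1.03, 0.490, 0.638 and 0.385 with them. The ratio of 0.638 was 0.487 in summed TPM, and the ratio of 1.03 ran from 0.991 to 1.08 with 1 replicate left out, falling below 1 without day 2 replicate 2. With 30 counts needed in place of 10, 32 genes had a matching length instead of 43. Replicate numbers did not pair libraries (18 correlations of same-numbered libraries from -0.0641 to 0.0649), and with the replicate block the counts of higher and lower genes were 2 and 7, 8 and 1, 4 and 24, 7 and 19, and 9 and 41. Scaling by library totals moved the median log2 change of all genes from 0.05 to 0.164 at day 7 against day 0, a shift of 0.114. Depth limits most members: 12 of 65 had at least 10 counts in every library.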
